A study of Rattus norvegicus with 9 samples.

Results

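The fragments described here came from 3 mitochondrial tRNAs of rat pancreatic islets, mtRNA-Ala-TGC, mtRNA-Asn-GTT and mtRNA-Cys-GCA. They were chosen by the host tRNA named in the deposited table of tRNA-derived fragments (tRFs), and each sequence was kept once. This gave 5 of the 192 distinct tRFs of the table, and 5 of its 14 mitochondrial ones. Small RNA sequencing was performed on islets of 5 chow diet (CD) and 4 low-protein (LP) rats, with 1 rat per library. All were 22-day-old male Sprague Dawley progeny. Their mothers had been fed a diet with 16.8% protein (CD) or 5.3% protein (LP) from early pregnancy until weaning. The labels and the study's methods differ in which share of the LP diet they call fat and which carbohydrate. LP exposure is used as a model of diabetes susceptibility, and the question addressed was which islet tRFs differ in level under it. Total RNA had been pretreated to open blocked fragment ends and to remove several base methylations.

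Mitochondrial tRNAs are transcribed as parts of long precursors, cut free at both ends, and completed by addition of the CCA tail to which the amino acid is attached. They serve only the mitochondrial ribosome, which makes the few respiratory chain proteins of the mitochondrial genome. In mammals the genes of mt-tRNA-Ala, mt-tRNA-Asn and mt-tRNA-Cys lie next to each other, in a cluster with those of mt-tRNA-Trp and mt-tRNA-Tyr around the origin from which the light strand is replicated. The Ala, Asn and Cys genes lie on the strand that holds few mitochondrial genes. tRFs that carry the CCA tail extend to the 3' terminus of the finished tRNA, and those without it end inside the molecule or come from its 5' part.

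The 5 sequences are shown because their ends help to place them within the hosts. Capitals mark the anticodon where it lies in a stem-loop, and a final CCA. The number in each name is the length in nucleotides (nt).
mtRNA-Ala-TGC 32: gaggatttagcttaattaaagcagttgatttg
mtRNA-Asn-GTT 39: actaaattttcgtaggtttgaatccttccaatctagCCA
mtRNA-Asn-GTT 55: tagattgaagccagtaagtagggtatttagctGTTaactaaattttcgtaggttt
mtRNA-Cys-GCA 51: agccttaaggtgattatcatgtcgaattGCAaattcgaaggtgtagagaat
mtRNA-Cys-GCA 21: tctcctctactaaggcttCCA
The table gives no coordinates, and sequences were not placed on a genome here. The anticodon was searched as its 3 letters, in a loop of 7 bases closed by a stem of 5 pairs. It was found at bases 33 to 35 of mtRNA-Asn-GTT 55 and at bases 29 to 31 of mtRNA-Cys-GCA 51, with all 5 stem pairs formed in both. mtRNA-Ala-TGC 32 holds no TGC, and its last 2 bases are TG, the letters with which the anticodon begins. Its place in the host was not determined further. Of the 5 tRFs, 2 end in CCA, mtRNA-Asn-GTT 39 and mtRNA-Cys-GCA 21.

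The mtRNA-Asn-GTT tRFs overlap. The last 19 bases of mtRNA-Asn-GTT 55 are the first 19 of mtRNA-Asn-GTT 39, so that both can be joined into 1 sequence of 75 nt, printed here with the shared bases in capitals.
mtRNA-Asn-GTT joined: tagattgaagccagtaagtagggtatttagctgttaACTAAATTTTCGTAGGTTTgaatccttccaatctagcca
Its first 7 bases are the exact complement of the 7 bases that precede its last 4, the arrangement of the acceptor stem of a tRNA. mtRNA-Asn-GTT 55 covers bases 1 to 55 and lacks the last 20 bases. mtRNA-Asn-GTT 39 begins at base 37, past the anticodon, and runs to the CCA tail. The mtRNA-Cys-GCA tRFs share no more than 1 base, where one ends and the other begins. The first 7 bases of mtRNA-Cys-GCA 51 are the exact complement of bases 11 to 17 of mtRNA-Cys-GCA 21, which again matches the acceptor stem. They are thus opposite ends of 1 tRNA, and whether bases lie between them in the full molecule was not determined here.

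Reads were deposited as raw counts per tRF and library. Levels are given as normalized read counts, the raw counts divided by the size factor that the authors used for each library, from 0.625 in CD 1 to 1.80 in LP 4. The tRFs of the table summed to 12556 to 40166 raw counts per library, a subset of each library and therefore not its depth. The 5 tRFs took 34 to 206 counts of these, so counting error was large. The table holds only tRFs that had been selected as changed between these same samples. All fold changes and p-values between CD and LP below are thus descriptions of selected values. The fold changes tend to be too large and the p-values too small. The table contains tRNA fragments only, so the islet identity of the samples could not be checked against marker genes. In islets, fewer cells of a type and less of an RNA per cell cannot be told apart.

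mtRNA-Ala-TGC 32, from the tRNA that delivers alanine, was higher in LP. Its raw counts were 5, 17, 26, 26 and 18 in CD 1 to CD 5, and 20, 61, 103 and 92 in LP 1 to LP 4. The normalized read counts were 8.001, 18.7, 21.6, 28.0 and 18.6 in CD, and 27.4, 60.8, 70.9 and 51.2 in LP. CD 1 was the lowest of CD and LP 1 the lowest of LP. The groups overlapped only where LP 1 lay just below CD 4. The mean went from 19.0 ± 7.24 (SD, n = 5) to 52.6 ± 18.6 (SD, n = 4), 2.77-fold. The log2 fold change was 1.45 ± 0.44 (SE; edgeR quasi-likelihood test, adjusted p = 0.00566). It stayed between 1.28 and 1.66 with any 1 library left out.

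The mtRNA-Asn-GTT tRFs, from the tRNA that carries asparagine, went opposite ways. mtRNA-Asn-GTT 55, which holds the 5' part and the anticodon, had raw counts of 19, 15, 26, 57 and 17 in CD and 4, 9, 19 and 14 in LP. Normalized, these were 30.4, 16.5, 21.6, 61.5 and 17.6 in CD, and 5.48, 8.97, 13.1 and 7.79 in LP. Every LP library lay below every CD library, and CD 4 stood above the rest of CD. The mean fell from 29.5 ± 18.7 (SD, n = 5) to 8.83 ± 3.18 (SD, n = 4). The log2 fold change of -1.70 ± 0.48 (SE; edgeR adjusted p = 0.00507) was -1.23 without CD 4.

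mtRNA-Asn-GTT 39, the 3' part with the CCA tail, was rare in CD. It had 1, 4, 3, 2 and 2 raw counts in CD 1 to CD 5, and 7, 18, 12 and 16 in LP 1 to LP 4. The normalized read counts were 1.60, 4.40, 2.49, 2.16 and 2.07 in CD, and 9.59, 17.9, 8.26 and 8.90 in LP. Every LP library was above every CD library, before and after scaling. The mean was 2.54 ± 1.09 (SD, n = 5) in CD and 11.2 ± 4.54 (SD, n = 4) in LP, 4.39-fold higher. In all, 12 counts in CD (95% exact Poisson interval 6.20 to 20.96) stood against 53 in LP (39.7 to 69.3), and these intervals cover counting error only. The tRF did not pass the filter on low counts, and in the fit without it the log2 fold change was 2.05 ± 0.38 (SE; edgeR adjusted p = 0.00210).

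The ratio of the mtRNA-Asn-GTT tRFs within a library does not depend on the scaling. mtRNA-Asn-GTT 39 had 0.0526, 0.267, 0.115, 0.0351 and 0.118 counts for each count of mtRNA-Asn-GTT 55 in CD 1 to CD 5. In LP 1 to LP 4 it had 1.75, 2, 0.632 and 1.14. The longer, 5' fragment was thus the more frequent in all CD libraries, and the 3' fragment in 3 of the 4 LP libraries. The mean log2 ratio was -3.44 ± 1.14 (SD, n = 5) for CD and 0.33 ± 0.75 (SD, n = 4) for LP, and differed by 3.77. Because each tRF had been selected, in opposite directions, on the same samples, this difference was not tested.

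**Figure D1:**
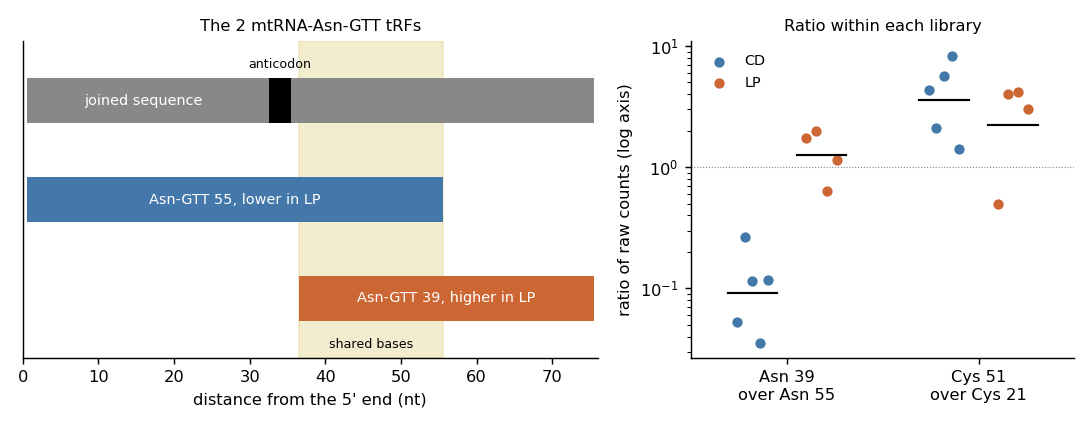
Left: the mtRNA-Asn-GTT tRFs drawn along their joined sequence of 75 nt, with the 19 shared bases shaded and the anticodon in black. Right: ratio of raw counts within each library (log axis, points are libraries, lines are geometric means) for the Asn pair, where CD lies at 0.0351 to 0.267 and LP at 0.632 to 2, and for the Cys pair, where the groups overlap.

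Both mtRNA-Cys-GCA tRFs, from the tRNA that carries cysteine, were lower in LP. mtRNA-Cys-GCA 51, with the 5' part and the anticodon, had raw counts of 13, 19, 85, 108 and 17 in CD, and 1, 8, 21 and 15 in LP. The normalized read counts were 20.8, 20.9, 70.7, 116.5 and 17.6 in CD, and 1.37, 7.97, 14.5 and 8.34 in LP. CD 3 and CD 4 were far above the other CD libraries, LP 1 rested on 1 count, and the groups did not overlap. The mean fell from 49.3 ± 43.6 (SD, n = 5) to 8.04 ± 5.34 (SD, n = 4), 6.13-fold. The log2 fold change of -2.55 ± 0.70 (SE; edgeR adjusted p = 0.00473) was the largest of the 5 in size, and it was -1.95 without CD 4.

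mtRNA-Cys-GCA 21, the 3' end with the CCA tail, was at 3, 9, 15, 13 and 12 raw counts in CD and at 2, 2, 5 and 5 in LP. Normalized, it was at 4.80, 9.91, 12.5, 14.03 and 12.4 in CD, and at 2.74, 1.99, 3.44 and 2.78 in LP. CD 1 was the lowest CD library and still lay above all of LP. The means were 10.7 ± 3.62 (SD, n = 5) and 2.74 ± 0.59 (SD, n = 4), with 52 counts in all of CD and 14 in all of LP. The tRF was removed by the filter on low counts. Without the filter its log2 fold change was -1.93 ± 0.37 (SE; edgeR adjusted p = 0.00210).

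**Figure D2:**
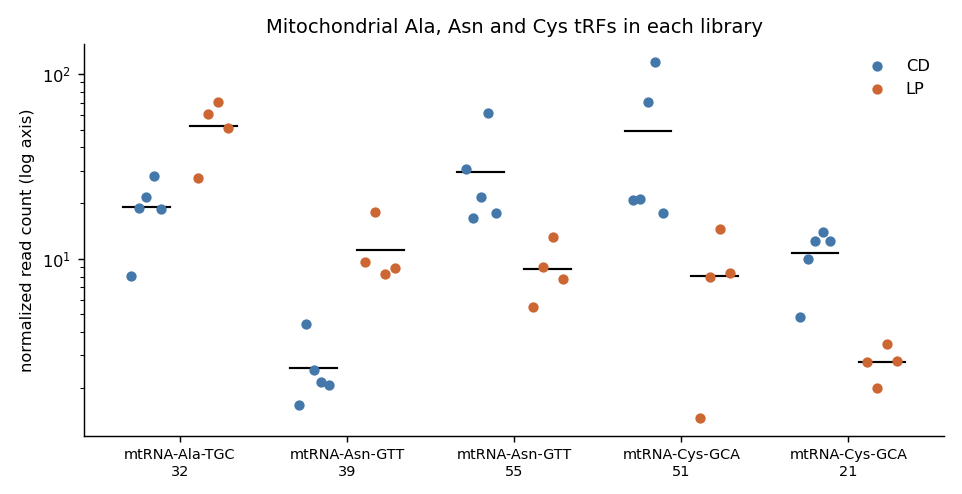
Normalized read counts (log axis) of the 5 tRFs in each of 5 CD and 4 LP libraries; points are libraries and lines are group means. The Ala 32 and Asn 39 tRFs are higher in LP and the Asn 55, Cys 51 and Cys 21 tRFs lower, and the groups overlap only for Ala 32.

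With the filter 3 of the 5 tRFs could be tested, of which 1 was called higher and 2 lower, with a change of at least 2-fold and an adjusted p up to 0.05. Of all tested tRFs, 41.4% were called higher and 56.4% lower, as follows from the selection of the table. Without the filter, 2 of 5 were called higher and 3 of 5 lower, against 39.6% and 58.3% in the table. The normalized levels of CD and LP did not overlap for 4 of 5, where this held for 76.6% of the table's tRFs. On raw counts they did not overlap only for mtRNA-Asn-GTT 39, while 44.8% of the table's tRFs were separated. After scaling, the share of the 5 that was separated was thus near that of the table.

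The sizes of the falls and of the rises depended on the scaling of the libraries. TMM scaling over the table moved the log2 fold changes of the 3 tested members up by 0.57 to 0.66. The median log2 fold change of the tested tRFs rose by 0.80. The tRFs that passed the filter were not all the same in both fits, so these shifts cannot be compared in size. TMM and DESeq2 size factors from the table take most tRFs as unchanged. All listed tRFs had been selected as changed, and 116 of 192 were lower, so neither scaling can decide how large the falls or rises were. No member changed direction under TMM, without scaling or under DESeq2, with mtRNA-Asn-GTT 39 and mtRNA-Cys-GCA 21, which the filter on low counts removed, fitted without that filter. mtRNA-Asn-GTT 55 no longer passed under TMM (log2 fold change -1.04, edgeR adjusted p = 0.0605), without scaling (-1.21, edgeR adjusted p = 0.0632), or when DESeq2 took its size factors from the listed tRFs (-0.98, DESeq2 adjusted p = 0.0902). With the last of these, mtRNA-Cys-GCA 21 did not pass either (-1.26, DESeq2 adjusted p = 0.0619). mtRNA-Ala-TGC 32 and mtRNA-Cys-GCA 51 passed under all of them, and so did mtRNA-Asn-GTT 39 when fitted without the filter. The rise of mtRNA-Ala-TGC 32, a log2 fold change of 1.45 in the main fit, was 2.08 under TMM. It was 2.16 under DESeq2 with size factors from the listed tRFs. For mtRNA-Asn-GTT 39, 2.05 without the filter became 2.67 and 2.88 in turn.

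Among members that had been selected in the same direction, 4 ratios were compared between the groups. That selection draws such ratios towards no difference, so a difference that was not detectable does not show a shared change. The ratio of mtRNA-Cys-GCA 51 to mtRNA-Cys-GCA 21 was 4.33, 2.11, 5.67, 8.31 and 1.42 in CD, and 0.5, 4, 4.2 and 3 in LP. Its mean log2 was 1.85 ± 1.04 (SD, n = 5) against 1.16 ± 1.46 (SD, n = 4), and a difference was not detectable (two-sided exact permutation test, p = 0.460, adjusted p = 0.587). The lowest LP ratio came from LP 1, with 1 and 2 counts. For mtRNA-Ala-TGC 32 over mtRNA-Asn-GTT 39 the ratio ran from 4.25 to 13 in CD and from 2.86 to 8.58 in LP, without a detectable difference (p = 0.190 by exact permutation test, adjusted p = 0.413). mtRNA-Asn-GTT 55 did not differ detectably in ratio to mtRNA-Cys-GCA 51 (exact permutation test, p = 0.206, adjusted p = 0.413) or to mtRNA-Cys-GCA 21 (p = 0.587, adjusted p = 0.587). The smallest p that the design allows is 0.0159.

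The other mitochondrial hosts in the table, those for Leu, Thr, Ile, Gly and Arg, gave 9 tRFs. All 9 were lower in LP in the fit without the filter, with log2 fold changes of -3.08 to -1.66 and lengths of 21 to 54 nt. Both mitochondrial tRFs that were higher therefore had an Ala or Asn host, and both mitochondrial tRFs with a CCA end were among the 5. The median log2 fold change was -1.70 for the 5, -2.0 for the other mitochondrial tRFs and -1.56 for all 192. No tRF of mitochondrial Trp, Tyr, Gln, Glu, Pro or Ser-TGA was listed, so the 5 were also the only ones from the strand with few genes. The summed raw counts of the 5 made up 1.21% to 2.97% of the table's mitochondrial counts in the CD libraries. In the LP libraries they made up 3.84% to 11.7%, with the highest share in LP 2. The members did not move together. Over all libraries, mtRNA-Ala-TGC 32 had 92 raw counts in CD and 276 in LP, and mtRNA-Asn-GTT 39 had 12 and 53. For mtRNA-Cys-GCA 51 these were 242 and 45, for mtRNA-Asn-GTT 55 134 and 46, and for mtRNA-Cys-GCA 21 52 and 14. The summed normalized counts of the other mitochondrial tRFs were 2232 to 9305 in CD and 736 to 1979 in LP, whereas those of the 5 were 65.6 to 222 in CD and 46.6 to 110.1 in LP. As a share of all counts in the table, the 5 made up 0.126% to 0.683% in CD and 0.271% to 0.693% in LP, and the groups overlapped. No test was made, since the 9 had been selected as lower.

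Direction in the 5 went with length as it did in the table. The 32-nt and 39-nt tRFs were higher, where 66 of 83 tRFs of 25 to 40 nt in the table were higher. The other mitochondrial tRF in that band, mtRNA-Gly-TCC 33, was lower (log2 fold change -1.655). The 51-nt and 55-nt tRFs were lower, where 34 of 35 tRFs over 40 nt were lower. The 21-nt tRF was lower, as were 65 of 74 tRFs of 16 to 24 nt. By their ends, the CCA-ended members went both ways, and so did those without a CCA end. The GC content was 31.2% to 47.6% in the 5, 18.9% to 42.9% in the other mitochondrial tRFs and 46.7% to 77.4% in the nuclear ones. Nuclear tRNA-Ala tRFs numbered 29, of which 6 were called higher and 23 lower, and 24 ended in CCA. No tRF of nuclear tRNA-Asn or tRNA-Cys was listed.

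**Figure D3:**
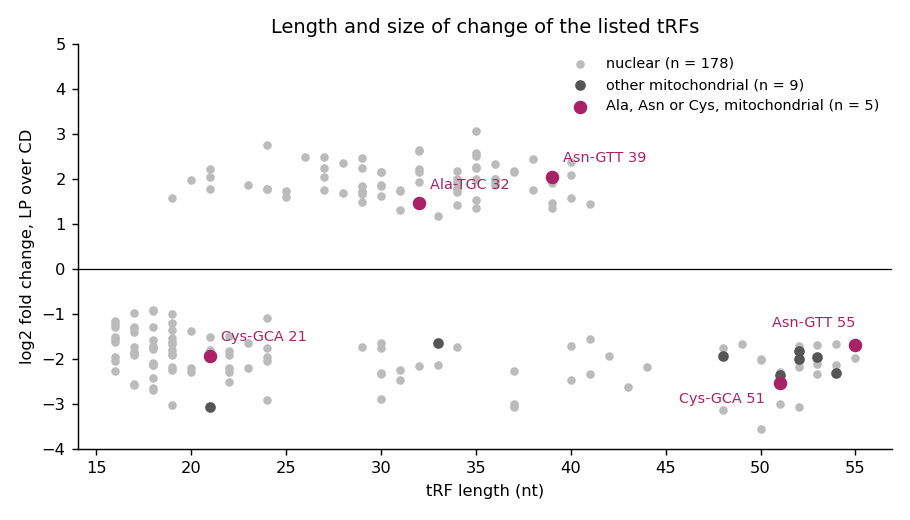
Length (nt) and log2 fold change of LP over CD, from edgeR without the filter on low counts, for the 192 tRFs of the table. The Ala 32 and Asn 39 tRFs lie above 0 and the Cys 21, Cys 51 and Asn 55 tRFs below, while all 9 other mitochondrial tRFs lie below 0.

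Within the groups, after each group's mean was subtracted from log2(normalized read count + 1), the 10 pairs of members had correlations from -0.31 to 0.79 over the 9 libraries. mtRNA-Cys-GCA 51 went with mtRNA-Ala-TGC 32 (Pearson's r = 0.79) and with mtRNA-Asn-GTT 55 (r = 0.77), although the first pair differed in direction between the groups. mtRNA-Ala-TGC 32 also went with mtRNA-Cys-GCA 21 (r = 0.73). mtRNA-Asn-GTT 39 had r = -0.31 with mtRNA-Asn-GTT 55, and r = -0.03 and -0.06 with the shorter and the longer mtRNA-Cys-GCA tRF. mtRNA-Asn-GTT 55 and mtRNA-Cys-GCA 21 had r = 0.12. Of all tRFs of the table that shared no stretch of 12 bases, the one most like mtRNA-Asn-GTT 55 was mtRNA-Thr-TGT 51 (r = 0.78), and the one most like mtRNA-Cys-GCA 51 was mtRNA-Arg-TCG 53 (r = 0.87). mtRNA-Ala-TGC 32 was most like mtRNA-Cys-GCA 51 itself. The rarer tRFs were most like nuclear ones, mtRNA-Asn-GTT 39 like tRNA-Gln-CTG 36 (r = 0.75) and mtRNA-Cys-GCA 21 like tRNA-Lys-CTT 34a (r = 0.86). These values share libraries and size factors, each is the highest of 190 or 191 candidates, and they are given as a description.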

How the data were processed

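The study's methods state that tRFs were annotated by the authors from tRNAscan-SE and mitotRNAdb collections, with a minimum number of reads per sample, and that DESeq2 was used. No aligner or genome build is named, and use of the library kit's molecular tags is not given in the sources used here. Raw counts, unscaled by the authors, make up the first value columns of the 255 deposited rows. A second set of deposited score values, headed as normalized counts, is on a log2 scale. They were fitted as DESeq2's variance-stabilising transformation (largest residual 5.72e-05), which gave the authors' size factors. The deposited columns of fold change, adjusted p and direction were not used.

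Rows were collapsed by sequence to 192 tRFs. edgeR 4.0.16 in R 4.3.3 (glmQLFit and glmQLFTest) was fitted to all tRFs that passed filterByExpr with a minimum count of 10, 181 in all, with Benjamini-Hochberg adjustment over the table. SE is the log2 fold change over the square root of its F. The fit was tested on simulated data. Ratios were compared with exact permutation tests (scipy 1.17.1), which were added after seeing the data. Nothing says whether rats were littermates, so p-values cover the spread between these samples. Alternatives were another scaling, DESeq2 1.42.0, no filter, all deposited rows, each library left out, and a replicate block. Every member was named. Beside each, the table's most similar tRF was named, by correlation within groups. Members, lists and the naming rule were chosen with earlier results of these data known.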

Additional observations from a re-analysis of the deposited data

Results flagged for a closer look

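In each group, the 5 tRFs were searched for a library set far apart from the others on a log scale. None of these 10 sets of values passed the limit. The widest gap was that of mtRNA-Asn-GTT 39 in LP 2, at 0.807 of the LP range.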

How the results depend on the processing

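The 1 member called higher became 2 under TMM over the table, under DESeq2 with either set of size factors, and without the filter on low counts, since mtRNA-Asn-GTT 39 was then tested. The 2 called lower became 1 under TMM, without scaling, and under DESeq2 with size factors from the table. They became 3 under DESeq2 with the authors' size factors and without the filter, since mtRNA-Cys-GCA 21 was then tested. All rows kept gave the same calls as the main fit. With each library left out, 1 was higher and 2 or 3 were lower. The 3 arose only without an LP library, when mtRNA-Cys-GCA 21 passed the filter. No log2 fold change reversed. For this, mtRNA-Asn-GTT 39 (1.74 to 2.32) and mtRNA-Cys-GCA 21 (-2.09 to -1.82) were fitted without the filter on low counts, an alternative chosen after seeing the data. The log2 fold change of mtRNA-Cys-GCA 51 ran from -2.97 (without LP 3) to -1.95 (without CD 4), and that of mtRNA-Asn-GTT 55 from -1.95 to -1.23. The difference in log2 ratio of the mtRNA-Asn-GTT tRFs ran from 3.42 to 4.16. That of the mtRNA-Cys-GCA tRFs, which had not passed, ran from -1.02 to 0.03, the latter without LP 1. Over all tRFs 102 were called lower, against 56 under TMM, 54 without scaling and 61 under DESeq2 with size factors from the table, while 75 or 76 were higher in each.

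The libraries share replicate numbers, but nothing states that a number marks a shared litter or day. Deviations from the group means correlated at -0.40 to 0.08 between libraries of the same number, and 0 of 8 libraries correlated best with their own number. With the replicate block, 1 member was higher and 2 were lower, and the log2 fold changes were 1.49 for mtRNA-Ala-TGC 32, -1.74 for mtRNA-Asn-GTT 55 and -2.71 for mtRNA-Cys-GCA 51.

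Depth limits mtRNA-Asn-GTT 39 and mtRNA-Cys-GCA 21 most, with as few as 1 and 3 counts in a CD library and 7 and 2 in an LP library. The lowest LP library of mtRNA-Cys-GCA 51 also held only 1 count.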
